A study of Rattus norvegicus with 8 samples.

Results

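The fibroblast growth factors (FGFs) and their receptors were followed in RNA from outflow veins of rat arteriovenous fistulas (AVFs). The 10 genes, 6 ligands (Fgf1, Fgf2, Fgf7, Fgf10, Fgf16 and Fgf18) and 4 receptors (Fgfr1, Fgfr2, Fgfr3 and Fgfr4), were matched by gene name among the 32623 genes listed for each vein, and no other listed gene carried the same name. Of these, 8 had a base mean (mean normalised count over all veins) of at least 100 and belonged to the 11682 genes tested, while Fgf2 and Fgfr4 had fewer counts.

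The veins came from 8 Sprague Dawley rats in which the epigastric vein had been joined to the femoral artery. Each fistula was wrapped in a bilayer polymer nanofiber scaffold on its adventitial side, and the vein was taken 21 days later. In 4 rats (3 female, 1 male) the scaffold released β-aminopropionitrile (BAPN), an irreversible inhibitor of the collagen and elastin crosslinking lysyl oxidases, and 4 vehicle controls (2 female, 2 male) received a vehicle scaffold. The comparison asks how local lysyl oxidase inhibition alters gene expression in the fistula vein, and because both groups had the operation and a scaffold, it contains neither an unoperated vein nor a fistula without a scaffold.

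FGFs are secreted proteins that bind heparan sulfate and signal by pairing receptor tyrosine kinases at the cell surface. The adaptor Frs2 then couples the receptor to RAS and the MAP kinases, and the pathway induces its own inhibitors, among them the Sprouty proteins. In vessels, FGF signaling is known for its part in smooth muscle growth and endothelial integrity. Fgf7 and Fgf10 are related ligands made mainly by mesenchymal cells and act on the epithelial splice form of Fgfr2, while Fgf16 belongs to the subfamily of Fgf9.

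The starts of the 3 ligands that the results contrast and of Spry1, the feedback inhibitor with the lowest FDR among pathway genes, are shown for their base composition. Each run holds the 250 bases before the annotated start in the RefSeq promoter table (GRCr8), 5′ to 3′ on the strand of the gene, with motif matches in capitals.
Fgf10, chr2:52533689-52533938, + strand: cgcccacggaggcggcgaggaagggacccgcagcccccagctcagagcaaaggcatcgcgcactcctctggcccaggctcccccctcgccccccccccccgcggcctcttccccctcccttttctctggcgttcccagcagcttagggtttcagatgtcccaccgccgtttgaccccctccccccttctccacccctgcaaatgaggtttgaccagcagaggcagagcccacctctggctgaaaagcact
Fgf16, chrX:74882745-74882994, + strand: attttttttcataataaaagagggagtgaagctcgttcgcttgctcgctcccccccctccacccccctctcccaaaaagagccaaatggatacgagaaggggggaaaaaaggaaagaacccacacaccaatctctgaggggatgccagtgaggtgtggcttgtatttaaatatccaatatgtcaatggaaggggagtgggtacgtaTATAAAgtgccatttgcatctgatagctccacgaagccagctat
Fgf7, chr3:133735377-133735626, + strand: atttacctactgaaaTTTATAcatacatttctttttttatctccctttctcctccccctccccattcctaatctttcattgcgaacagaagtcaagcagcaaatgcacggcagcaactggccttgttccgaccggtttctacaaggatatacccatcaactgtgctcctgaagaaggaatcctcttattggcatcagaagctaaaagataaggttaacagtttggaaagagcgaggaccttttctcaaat
Spry1, chr2:122485097-122485346, + strand: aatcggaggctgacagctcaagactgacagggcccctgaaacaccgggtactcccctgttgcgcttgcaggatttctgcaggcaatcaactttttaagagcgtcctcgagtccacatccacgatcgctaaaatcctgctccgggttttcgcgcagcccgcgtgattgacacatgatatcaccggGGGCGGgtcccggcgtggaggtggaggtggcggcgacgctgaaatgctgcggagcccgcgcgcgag

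The RefSeq table held an entry for 9 of the 10 genes. It had none by name for Fgfr1, which was therefore not searched. The Fgf10 window was 67.2% G or C with 13 CpG dinucleotides, against medians of 51.2% and 5 over 33469 promoters of the same length. The Fgf7 window was 41.6% G or C with 5 CpG, that of Fgf16 47.2% with 6, and that of Spry1 60.8% with 24. The capitals mark a TATA box (TATAAA) at bases -44 to -39 before the start in Fgf16, a TATA box on the other strand at -235 to -230 in Fgf7, and a GC box (GGGCGG) at -66 to -61 in Spry1. On either strand, the TATA box letters were found in 12.9% of all promoters and the GC box letters in 30.5%. The ETS core (CCGGAA, in 12.6% of promoters), the AP-1 site (TGANTCA, 6.34%), the E-box (CACGTG, 5.59%) and the CArG box (by its consensus, 1.5%) were also searched and had no match in any of the 9 windows or in that of Spry1. Among the receptors, GC boxes were matched 2 times in Fgfr2, 3 times in Fgfr3 and 2 times in Fgfr4, and Fgf18 had 1, whereas Fgf1, Fgf2 and Fgf10 had no match to any of these motifs.

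Total counts were between 45039451 and 52241007 in the BAPN libraries and between 19548203 and 22442050 in the vehicle libraries, so depth and treatment cannot be told apart by design. Normalised levels are given as CPM (counts-per-million, a share of the library total after TMM scaling), log2 fold changes are BAPN against vehicle, and the FDR is the edgeR quasi-likelihood p-value adjusted over all 11682 tested genes. At FDR below 0.05, 9.25% of tested genes were lower and 7.5% higher in BAPN-treated veins. Smooth muscle, endothelial and fibroblast markers of the labelled vein were detected in every library, and of all markers Pecam1 and Trbc1 were not matched by name.

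Fgf10, Fgf16 and Fgfr1 were lower in BAPN-treated veins, with mean levels 2.40, 2.27 and 1.67 times as high in vehicle controls. The 3 genes are 3 of 8 tested, against the 9.25% of all tested genes called lower, and 0 of 8 were called higher, against 7.5%. The fold change was negative for 7 of the 8 and positive for Fgf7, and their median log2 fold change was -0.84, beside a median of 0.02 and 48.4% negative over all tested genes. The genes were chosen with earlier results of these data known, so these shares are given as a description. All 3 calls lay close to the threshold and were lost when sex was added to the fit (FDR = 0.0647 for Fgf10, 0.0878 for Fgf16 and 0.0600 for Fgfr1), although the log2 fold changes stayed close, at -1.30, -1.11 and -0.70. With all libraries thinned to the lowest total, the same 3 FGF genes were called, Fgf10 at -1.39 (FDR = 0.0354), Fgf16 at -1.19 (FDR = 0.0270) and Fgfr1 at -0.76 (FDR = 0.0251), as were the same 7 other pathway genes described below. In bulk tissue, fewer cells of a type and less RNA per cell cannot be told apart, and this applies to each gene below.

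**Figure D1:**
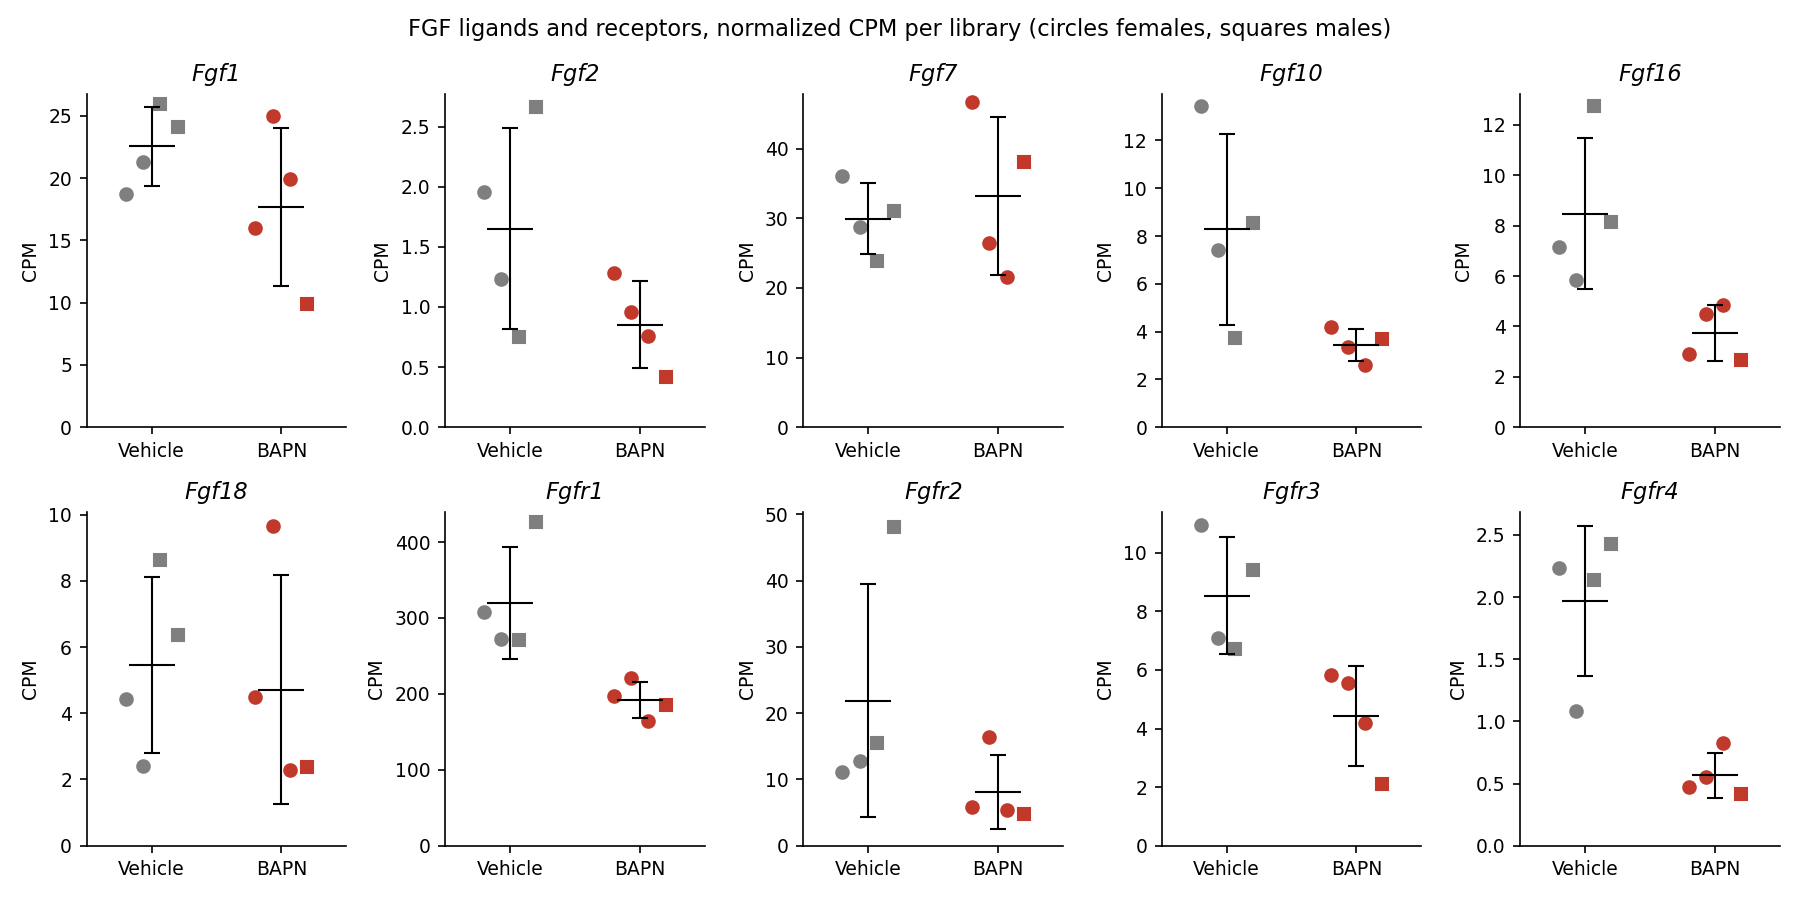
CPM of the 10 FGF genes in each library, with vehicle in grey and BAPN in red, circles for females and squares for males, and the mean ± SD of 4 libraries as lines. The groups do not overlap for Fgf16, Fgfr1, Fgfr3 and Fgfr4, all lower with BAPN, and they overlap for the other 6 genes. Of all tested genes, 11.9% had every BAPN vein below every vehicle vein. Fgfr4 had few counts and was not among the tested genes.

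Fgf10 (ENSRNOG00000012278), a mesenchymal ligand best known for lung and limb budding and for adipose and epithelial growth, was measured at 4.19, 3.36, 2.59 and 3.68 CPM in BAPN 1 to 4 and at 13.4, 7.43, 3.73 and 8.56 CPM in Vehicle 1 to 4. The BAPN veins were tightly grouped and low, the vehicle veins spread widely with Vehicle 1 the highest, and the groups overlapped because Vehicle 3 lay below BAPN 1. The mean was 3.46 ± 0.669 CPM in treated and 8.29 ± 4.00 CPM in control veins (SD, n = 4 each), a log2 fold change of -1.26 (SE 0.37, FDR = 0.0440). These values rest on 113 to 203 reads per BAPN library and 89 to 288 per vehicle library. The fold change stayed negative with any 1 vein left out (-1.504 to -0.93), but the FDR stayed below 0.05 only without Vehicle 3 (0.0274), and was between 0.0537 and 0.120 without each of the other 7 veins, the largest without Vehicle 1. Among females alone, 3 BAPN against 2 vehicle veins, the log2 fold change was -1.62 (FDR = 0.0864), and the males, with 1 BAPN vein, were too few for a value of their own.

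Fgf7 (ENSRNOG00000009425), the keratinocyte growth factor and the closest relative of Fgf10 in this set, did not pass the test. Its level was 46.6, 26.5, 21.5 and 38.0 CPM in BAPN 1 to 4 and 36.1, 28.7, 23.9 and 31.1 CPM in Vehicle 1 to 4, so that BAPN veins were both the highest and the lowest. The mean was 33.2 ± 11.3 CPM against 29.9 ± 5.07 CPM (SD, n = 4 each; log2 fold change 0.15, SE 0.26, FDR = 0.680). Set against Fgf7 within each library, which needs no scaling between libraries, Fgf10 had 8.99, 12.7, 12.1 and 9.67 reads per 100 Fgf7 reads in the BAPN libraries, against 37.2, 25.9, 15.6 and 27.6 in the controls. The 2 groups did not overlap in this ratio, which is given as a description because it was chosen after the values were seen.

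Fgf16 (ENSRNOG00000061530), a secreted ligand known from the heart and brown fat, was at 2.91, 4.50, 4.87 and 2.66 CPM in BAPN 1 to 4 and at 7.13, 5.86, 12.7 and 8.13 CPM in Vehicle 1 to 4. Every BAPN vein lay below every vehicle vein, a separation found in 11.9% of all tested genes, and Vehicle 3 was the highest. The mean was 3.73 ± 1.11 CPM against 8.46 ± 3.00 CPM (SD, n = 4 each; log2 fold change -1.18, SE 0.31, FDR = 0.0352). Without 1 vein the log2 fold change was -1.33 to -0.91, the latter without Vehicle 3, and the FDR stayed below 0.05 only without Vehicle 2 (0.0267), while it was 0.0527 to 0.0799 without each of the other 7. Among females alone it was -0.67 (FDR = 0.255).

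The remaining ligands did not pass the test. Fgf1 (ENSRNOG00000013867), a ligand of all FGF receptors that is released without a signal peptide, was at 16.0, 25.0, 19.9 and 9.89 CPM with BAPN and at 18.7, 21.3, 26.0 and 24.1 CPM with vehicle. Its groups overlapped, with the BAPN male (BAPN 4) the lowest of all 8 veins, and its log2 fold change was -0.35 (SE 0.28, FDR = 0.347). Fgf18 (ENSRNOG00000048389), a ligand known from bone and cartilage, was at 4.50, 9.66, 2.30 and 2.37 CPM with BAPN and at 4.43, 2.41, 8.63 and 6.37 CPM with vehicle. The highest and the lowest vein were both BAPN-treated (log2 fold change -0.21, SE 0.56, FDR = 0.794), and the sign turned without BAPN 3 (0.01), without BAPN 4 (0.01) or without Vehicle 3 (0.10). Fgf2 (ENSRNOG00000017392), the basic FGF that is a classical mitogen of smooth muscle cells, had few counts, 62, 49, 33 and 20 reads with BAPN and 42, 25, 18 and 56 with vehicle. At 1.28, 0.962, 0.758 and 0.416 CPM against 1.96, 1.23, 0.754 and 2.66 CPM the groups overlapped, and a fit with no filter on low counts gave -0.92 (SE 0.53, FDR = 0.319).

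Of the receptors, Fgfr1 (ENSRNOG00000016050), the receptor broadly present in mesenchymal and vascular cells, was measured at 197, 220, 164 and 185 CPM in BAPN 1 to 4 and at 308, 272, 271 and 426 CPM in Vehicle 1 to 4. All BAPN veins lay below all vehicle veins, and Vehicle 4 was the highest. Its mean was 192 ± 23.3 CPM against 320 ± 73.2 CPM (SD, n = 4 each), a log2 fold change of -0.74 (SE 0.17, FDR = 0.0256), from 7156 to 11217 reads per BAPN library and 5539 to 8966 per vehicle library. With 1 vein left out it was -0.82 to -0.57. The FDR stayed below 0.05 without BAPN 2, Vehicle 2, Vehicle 3 or Vehicle 4, and was 0.0504 without BAPN 1, 0.0703 without BAPN 3, 0.0605 without BAPN 4 and 0.0639 without Vehicle 1. Among females alone it was -0.58 (FDR = 0.121). Fgfr1 gave 90.7% to 96.2% of the reads of the 4 receptors in BAPN libraries and 87.7% to 92.9% in vehicle libraries, a share of reads that is not corrected for transcript length.

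Fgfr2 (ENSRNOG00000016374), whose splice forms serve epithelial and mesenchymal cells, differed widely between veins of a group. It was at 5.84, 16.4, 5.44 and 4.72 CPM in BAPN 1 to 4 and at 11.1, 12.7, 15.5 and 48.1 CPM in Vehicle 1 to 4, so that BAPN 2 lay among the vehicle veins and Vehicle 4 far above them. The log2 fold change of -1.43 (SE 0.52) did not pass (FDR = 0.104), although it passed without BAPN 2 (-2.05, FDR = 0.0447) and was only -0.70 (FDR = 0.3003) without Vehicle 4 and -0.37 (FDR = 0.670) among females alone. In BAPN 2, the summed level of 8 epithelial markers was 40.5 CPM, with Krt8 at 12.04 and Krt5 at 8.07 CPM, against 6.01 to 16.2 CPM in the other BAPN veins. Krt10 in BAPN 2 (1.26 CPM) was, however, below BAPN 3 (1.35 CPM) and BAPN 4 (1.83 CPM), and Csn2 had no reads there. Only 2 of the 8 markers had enough counts to be tested. In Vehicle 4, the same sum was 11.4 CPM, against 8.34 to 25.6 CPM in the other vehicle veins, or 8.07 to 9.55 CPM without Csn2, a milk protein gene that gave 17.6 CPM in Vehicle 2. The sum of 5 smooth muscle markers also stood high in both veins, at 3908 CPM in BAPN 2 against 1398 to 2003 CPM in the other BAPN veins, while Vehicle 4 reached 5483 CPM and its group otherwise 2860 to 4543 CPM. Within the list, however, Myh11 (1225 CPM) and Cnn1 (133 CPM) in Vehicle 4 were below Vehicle 3 (1533 and 227 CPM). Vehicle 4 had the highest fibroblast sum as well, 6275 CPM against 3371 to 4999 CPM in the other vehicle veins, with Lum at 2537 CPM, whereas Pi16 (87.9 CPM) was the lowest of the vehicle veins there and Pdgfra (270.0 CPM) was below Vehicle 1 (294 CPM). The endothelial sum without Vwf was also highest in Vehicle 4, at 527 CPM against 226 to 393 CPM in the other vehicle veins. With Vwf it was 687 CPM, below Vehicle 1 (1157 CPM). The part of these cell types in the Fgfr2 values was not tested.

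Fgfr3 (ENSRNOG00000016818), best known as a brake on bone growth, was at 5.84, 5.56, 4.20 and 2.10 CPM with BAPN and at 10.95, 7.09, 6.70 and 9.42 CPM with vehicle. The groups did not overlap, with the BAPN male the lowest, but the log2 fold change of -0.95 (SE 0.35) missed the threshold (FDR = 0.0758) and was never called with a vein left out (FDR 0.0772 to 0.185). Fgfr4 (ENSRNOG00000016763), the liver receptor for endocrine FGFs, had few counts, 23, 28, 36 and 20 reads with BAPN, against 48, 22, 51 and 51 with vehicle. At 0.475, 0.550, 0.827 and 0.416 CPM against 2.24, 1.08, 2.14 and 2.43 CPM, every BAPN vein was below every vehicle vein. The fit with no filter, in which 4.03% of 20421 genes were called lower, gave a log2 fold change of -1.76 (SE 0.44, FDR = 0.0483). That call was kept only without Vehicle 2 (FDR = 0.0306), and the FDR was 0.0738 to 0.123 without each of the other 7 veins. It was also kept with the default count filter of edgeR (0.0325) and DESeq2 (0.000771), and lost with sex as a covariate (0.0976), with females alone (0.308) and with the replicate block (0.125). In the same fit with no filter, Fgf10 was not called (FDR = 0.0573), while Fgf16 (0.0447) and Fgfr1 (0.0344) were.

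A second count model, DESeq2, called 5 of the 8 tested genes lower, against 15.1% of all genes it tested. It added Fgfr2 (FDR = 0.0305) and Fgfr3 (FDR = 0.0256) to Fgf10 (0.00539), Fgf16 (0.00224) and Fgfr1 (0.000781).

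**Figure D2:**
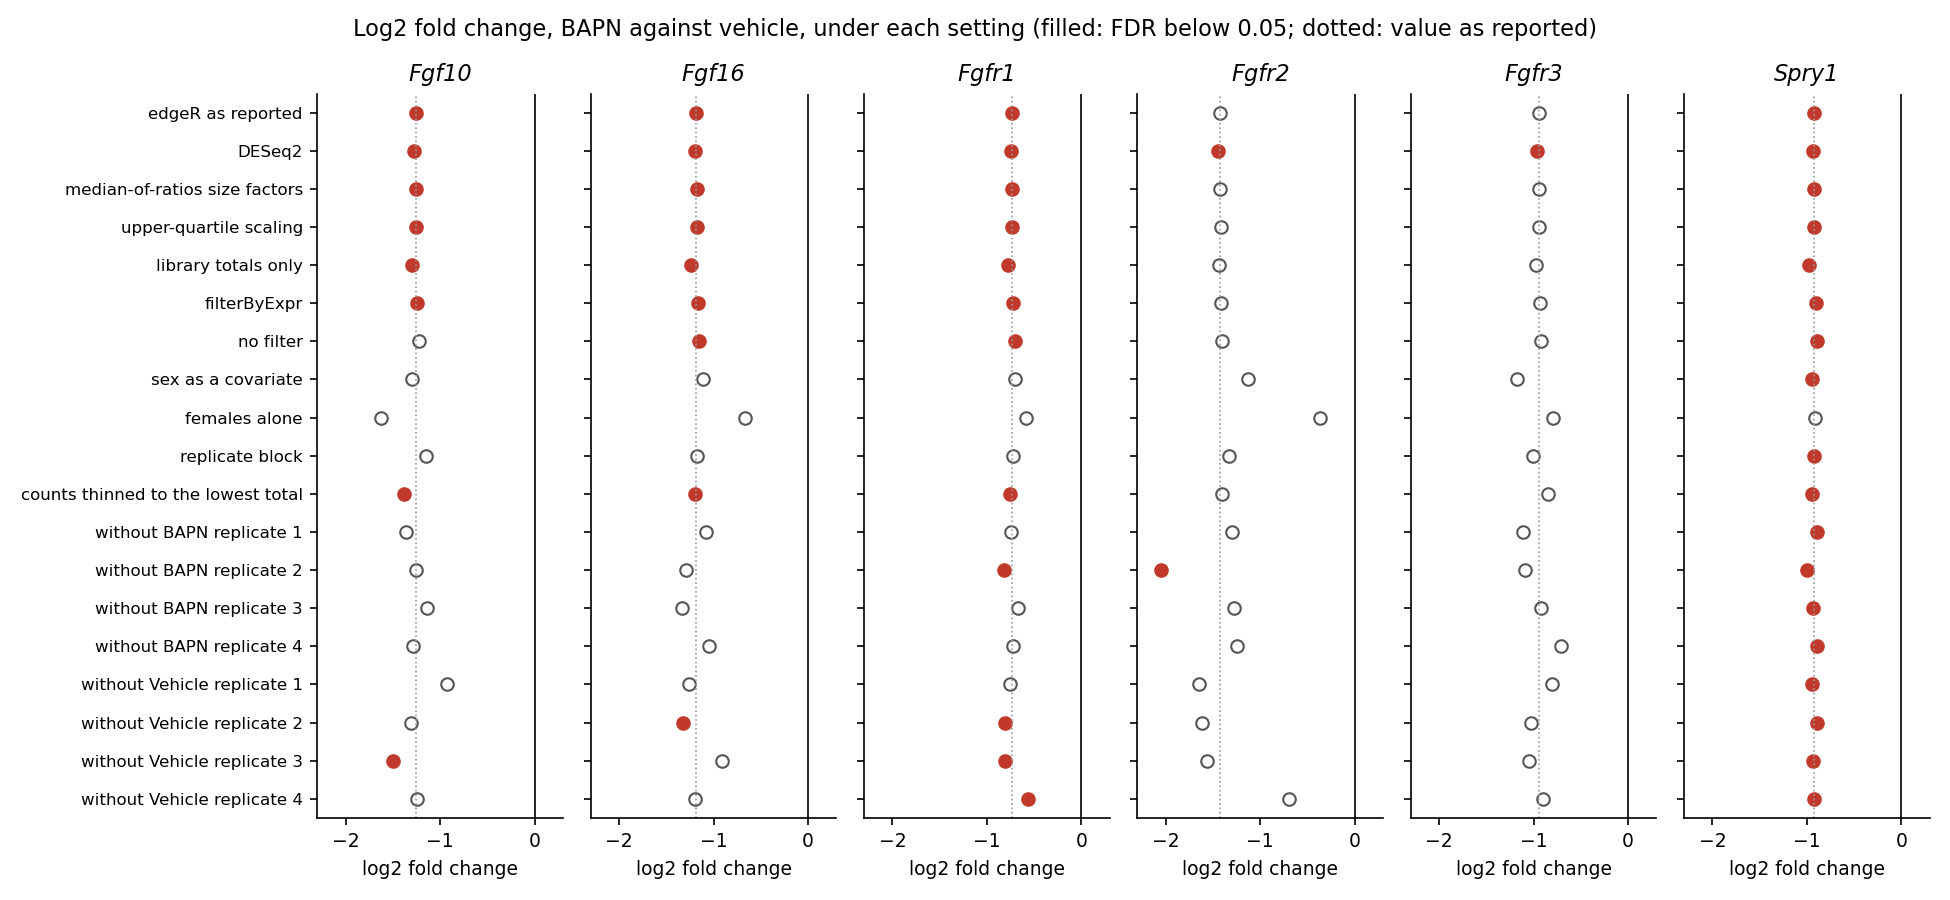
Log2 fold change (x axis) of 5 FGF genes and Spry1 under each setting (rows), with filled points at FDR below 0.05 and the dotted line at the reported value. All points lie below 0, Fgf10 runs from -1.62 to -0.93, Fgf16 from -1.33 to -0.67, Fgfr1 from -0.82 to -0.57 and Spry1 from -0.996 to -0.89.

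Of 69 other genes of the pathway, listed by role, 67 were found by name and 43 were tested. In BAPN-treated veins 31 had a negative and 12 a positive fold change, and 7 were called, all lower, with a median log2 fold change of -0.24. Over all tested genes 48.4% were negative, 9.25% were called lower and 7.5% higher. This list, too, was chosen with earlier results of these data known. The 9 other secreted ligands, the 4 intracellular FGF homologous factors, the 2 FGF-binding proteins and the 3 endocrine ligands found all fell under the base mean of 100. The other secreted ligands together summed to 0.395 to 0.987 CPM in BAPN libraries and 1.08 to 2.61 CPM in vehicle libraries.

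The feedback inhibitors of the receptors had 6 of 7 tested members with a negative fold change, 4 with all BAPN veins below all vehicle veins and 2 called lower, beside 48.4%, 11.9% and 9.25% of all tested genes. Spry1 (ENSRNOG00000025371), a Sprouty protein that dampens signaling from receptor tyrosine kinases to RAS, was at 21.5, 26.1, 23.5 and 21.7 CPM in BAPN 1 to 4 and at 42.5, 47.0, 42.8 and 43.9 CPM in Vehicle 1 to 4. Both groups were tight and far apart, at means of 23.2 ± 2.14 and 44.0 ± 2.05 CPM (SD, n = 4 each; log2 fold change -0.92, SE 0.10, FDR = 0.00366). It was called in 17 of 18 alternatives, the exception being females alone (FDR = 0.0566). Its relative Spry4 was at 9.83, 10.2, 7.10 and 8.87 CPM against 18.3, 14.0, 11.6 and 22.3 CPM, again without overlap (log2 fold change -0.88, SE 0.22, FDR = 0.0318), and was called in 10 of 18 alternatives. Dusp6, a phosphatase of ERK and the gene of this role with the largest base mean, was at 146 ± 18.7 CPM against 128 ± 28.3 CPM and did not pass (log2 fold change 0.19, FDR = 0.447).

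**Figure D3:**
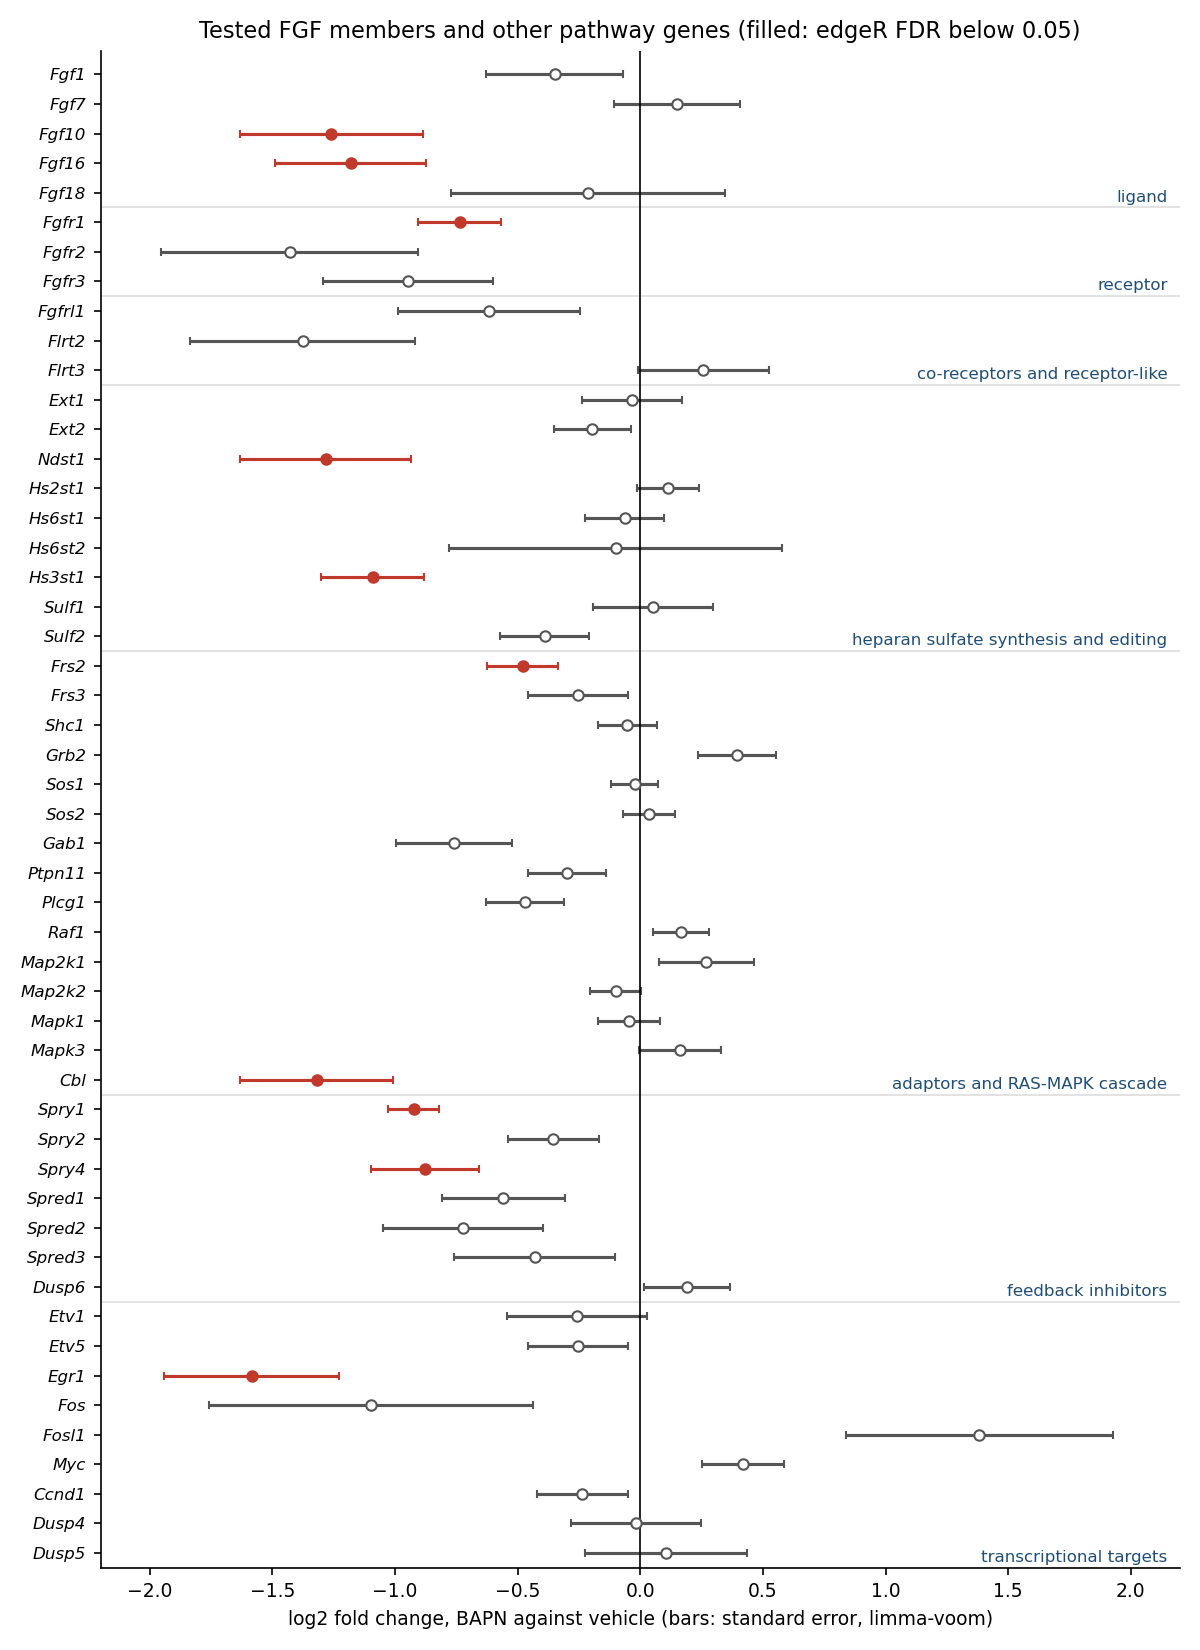
Log2 fold change (x axis, BAPN against vehicle, bars are the limma-voom standard error) of the 8 tested FGF genes and 43 other pathway genes, grouped by role, with filled points called by edgeR at FDR below 0.05. All 10 filled points lie below 0, and the adaptor and MAP kinase genes are spread around 0.

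Heparan sulfate, the sugar chain that holds FGFs at their receptors, is built and edited by enzymes of which 9 were tested, with 2 called lower, against 9.25% of all tested genes, and a median of -0.10. Hs3st1, a sulfotransferase, was at 12.8, 14.9, 11.3 and 10.7 CPM in BAPN 1 to 4 and at 34.7, 24.0, 18.1 and 29.4 CPM in Vehicle 1 to 4. The groups did not overlap (log2 fold change -1.09, SE 0.21, FDR = 0.0157), and the call held with each vein left out. Ndst1, which starts the sulfation of the chain, was at 19.2, 15.5, 6.13 and 13.5 CPM against 41.0, 23.9, 24.1 and 43.3 CPM (log2 fold change -1.28, SE 0.35, FDR = 0.0356), also without overlap. Ndst1 was called in 11 of 18 alternatives. Sulf2, an enzyme that removes sulfate and the gene of this role with the largest base mean, was at 237 ± 28.7 CPM against 310 ± 68.9 CPM (SD, n = 4 each; log2 fold change -0.39, FDR = 0.151).

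Among the 15 adaptors and members of the RAS and MAP kinase cascade, the median was -0.05, 10 were negative and 2 were called lower, a share near the 9.25% of all tested genes. Frs2, the docking adaptor of FGF receptors, was at 39.7, 47.9, 33.7 and 38.9 CPM with BAPN and at 58.2, 60.4, 44.4 and 60.4 CPM with vehicle. Vehicle 3 lay below BAPN 2, and the call was at the threshold (log2 fold change -0.48, SE 0.14, FDR = 0.0489) and held in 6 of 18 alternatives. Cbl, a ubiquitin ligase that takes active receptors off the surface, was at 17.4, 11.8, 5.76 and 12.8 CPM against 37.8, 29.0, 21.2 and 31.5 CPM, without overlap (log2 fold change -1.32, SE 0.31, FDR = 0.0248), and was called in 14 of 18 alternatives. Shc1, an adaptor shared by many receptors, was at 259 ± 9.01 CPM against 268 ± 30.8 CPM (SD, n = 4 each; log2 fold change -0.05, FDR = 0.779).

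Of 9 tested transcriptional targets, which many growth factors share, 6 were negative and 1 was called lower, a share near the 9.25% of all tested genes. Egr1, an immediate early transcription factor, was at 54.0, 83.5, 108 and 79.5 CPM in BAPN 1 to 4 and at 145, 204, 472 and 154 CPM in Vehicle 1 to 4. Vehicle 3 stood above all others and the groups did not overlap (log2 fold change -1.59, SE 0.36, FDR = 0.0277). Without Vehicle 3 the log2 fold change was -1.05 (FDR = 0.0349), and the call was lost without any 1 of the 4 BAPN veins (FDR 0.0537 to 0.0635). Ccnd1, cyclin D1, was at 202 ± 42.4 CPM against 238 ± 45.4 CPM (SD, n = 4 each; log2 fold change -0.24, FDR = 0.382). None of the 3 tested co-receptors and receptor-like genes was called, although 2 were negative and their median log2 fold change was -0.62. The one with the largest base mean, Flrt3, a membrane protein that binds FGF receptors, was at 41.8 ± 6.40 CPM against 35.0 ± 15.4 CPM (log2 fold change 0.26, FDR = 0.536).

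**Figure D4:**
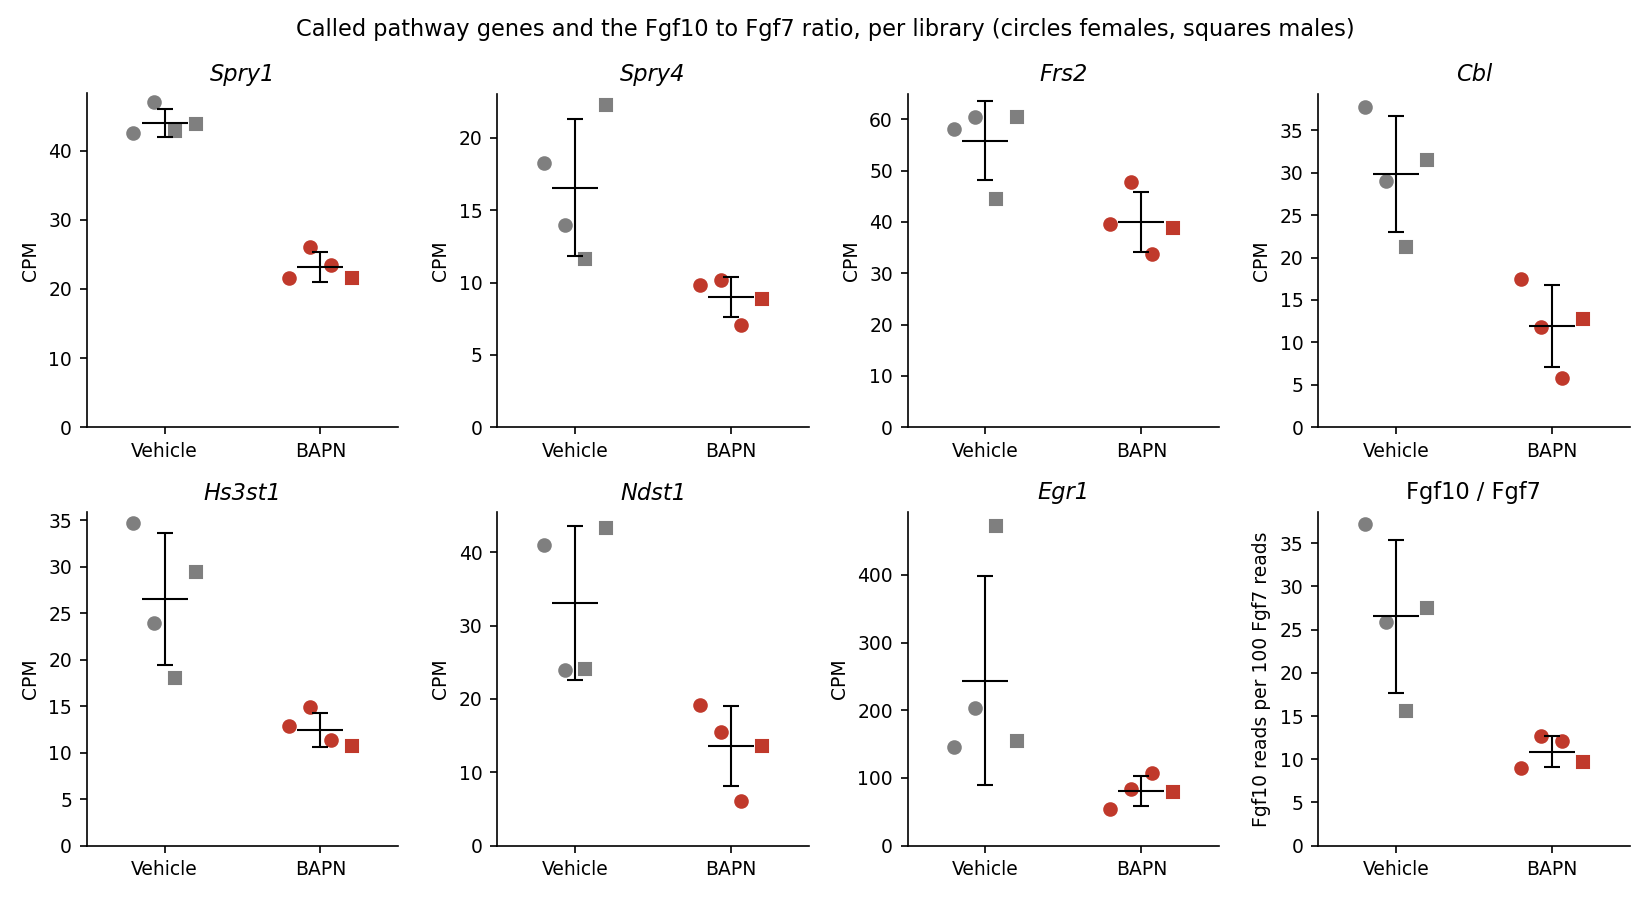
CPM per library of the 7 called pathway genes, and in the last panel Fgf10 reads per 100 Fgf7 reads, with vehicle in grey, BAPN in red, females as circles, males as squares and the mean ± SD of 4 libraries as lines. The groups overlap only for Frs2, and for Spry1 all BAPN veins lie between 21.5 and 26.1 CPM and all vehicle veins between 42.5 and 47.0 CPM. The 7 genes are shown because they were called. All BAPN veins lay below all vehicle veins for 9 of the 43 tested pathway genes, beside 11.9% of all tested genes.

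Some cell type markers differed between the groups, beside 9.25% of all tested genes called lower and 7.5% called higher. Single genes with all BAPN veins below all vehicle veins were 11.9% of those tested. The summed level of 4 endothelial markers was 185 to 356 CPM in BAPN libraries and 454 to 1157 CPM in vehicle libraries, without overlap, and 2 of the 4 (Vwf and Tek) were called lower. Tek by itself separated the groups, at 33.4 to 48.7 CPM against 71.8 to 124 CPM (FDR = 0.00890), while Cdh5 and Kdr overlapped, and without Vwf the sum of the other 3 overlapped (126 to 254.5 CPM against 226 to 527 CPM). The sum of 5 smooth muscle markers overlapped, at 1398 to 3908 CPM against 2860 to 5483 CPM, with 3 of 5 (Myh11, Cnn1 and Smtn) called lower. The sum of 5 adipocyte markers also overlapped, at 32.4 to 83.0 CPM against 75.9 to 243 CPM, with 1 of 4 tested (Plin1) called lower. Vehicle 1, the vein with the highest Fgf10, also had the highest adipocyte and endothelial sums, although Cdh5 and Kdr were highest in Vehicle 4.

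The fibroblast sum, 3171 to 4572 CPM against 3371 to 6275 CPM, overlapped with 0 of 5 called. Macrophage markers summed to 2056 to 2691 CPM against 1365 to 2441 CPM, with 0 of 5 called. T cell markers summed to 21.1 to 66.1 CPM against 11.6 to 25.6 CPM. Of these, 1 of 4 (Cd2) was called higher, beside 7.5% of all tested genes. Skeletal muscle markers summed to 16.1 to 29.8 CPM against 17.0 to 69.4 CPM and Schwann cell and nerve markers to 33.7 to 244 CPM against 30.7 to 74.3 CPM, with none called in either. Epithelial markers summed to 6.01 to 40.5 CPM against 8.34 to 25.6 CPM, with 0 of 2 tested called. The part of these cell types in the lower Fgf10, Fgf16, Fgfr1 and pathway levels was not tested.

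**Figure D5:**
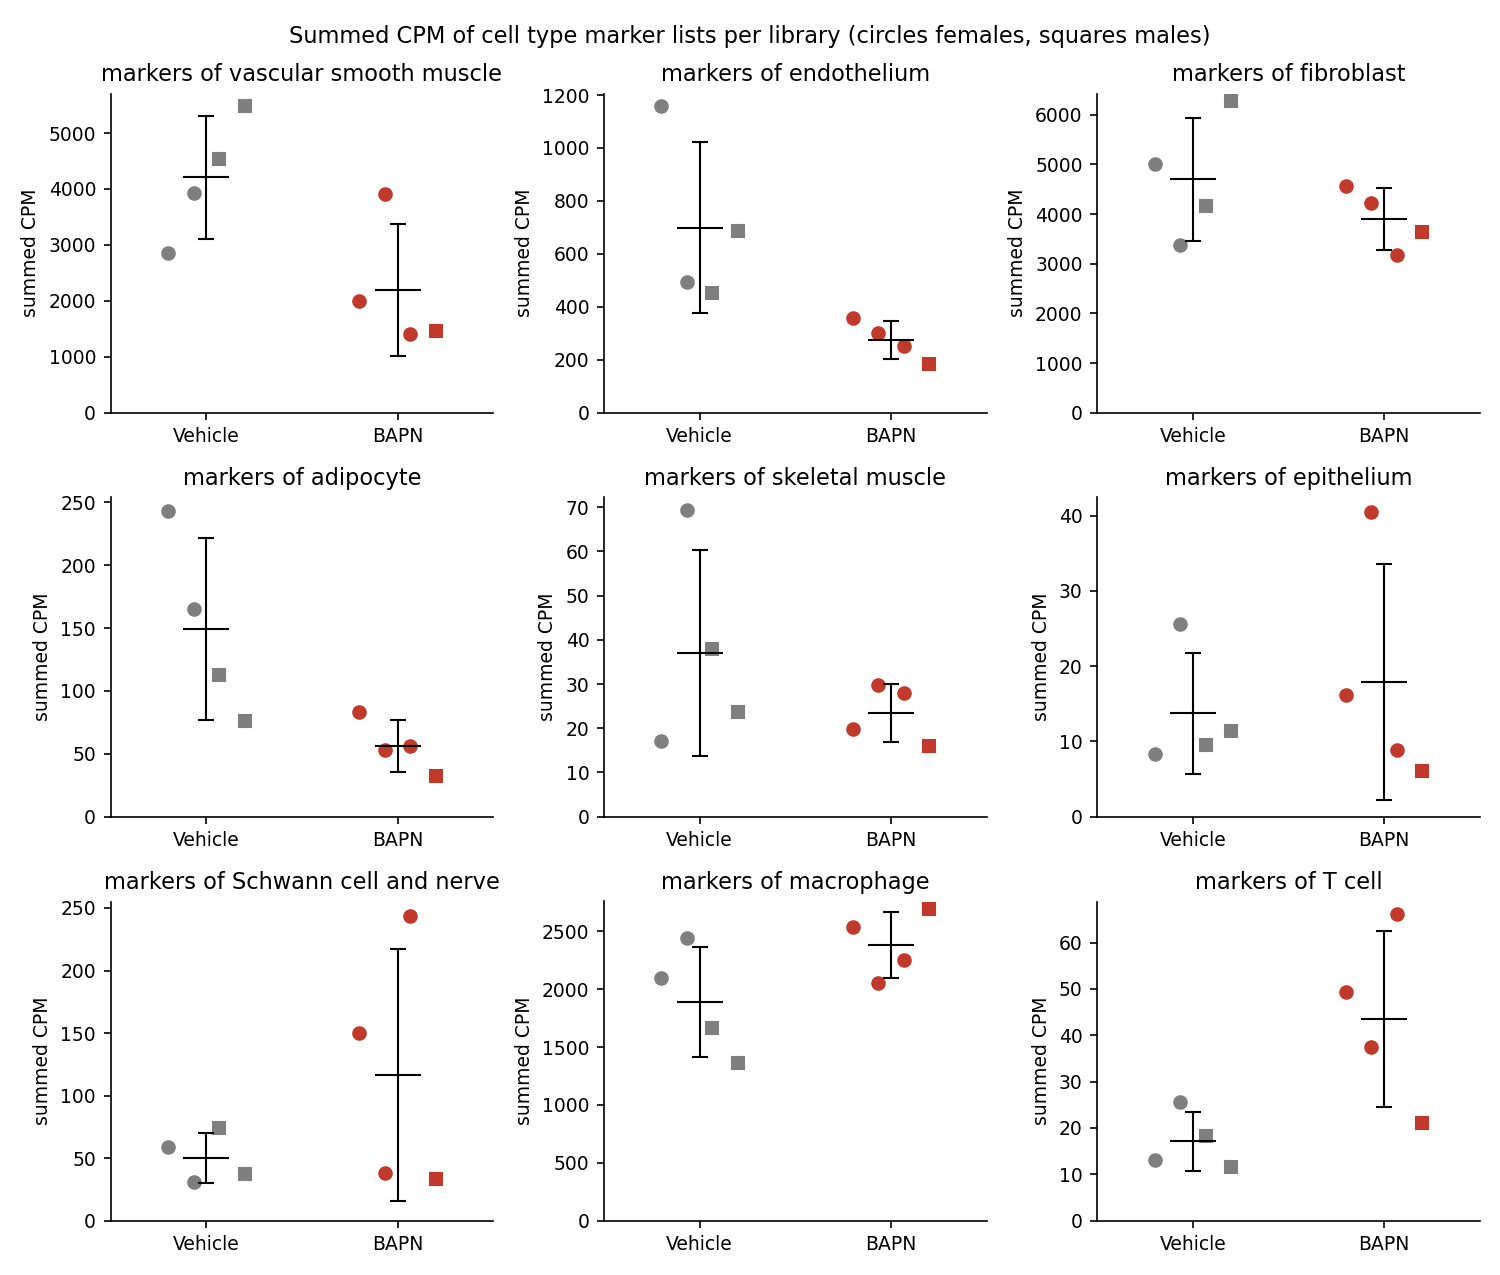
Summed CPM per library of 9 cell type marker lists, with vehicle in grey, BAPN in red, females as circles, males as squares and the mean ± SD of 4 libraries as lines. The endothelial sum is the one list whose groups do not overlap, and it overlaps without Vwf, and the smooth muscle and adipocyte sums are mostly lower with BAPN.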

How the data were processed

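RNA was measured in veins of 8 rats (4 BAPN, 4 vehicle), grouped by the labels. Per the methods, total RNA was depleted of ribosomal RNA, made into stranded libraries and sequenced. The submitters' processing notes list bcl2fastq 2.17, Trim Galore and STAR. The counting tool, its strand setting and the genome build are not given in the sources used here. The authors deposited raw read counts for 32623 genes, without normalization, and these counts were used as they are. Promoter sequences are from RefSeq GRCr8, matched by symbol.

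The test took genes whose base mean (DESeq2 1.42.0 size factors) reached 100, as in the methods, which name a DESeq plug-in. edgeR 4.0.16 in R 4.3.3 compared the groups (TMM normalization, quasi-likelihood F test, Benjamini-Hochberg FDR over 11682 genes, threshold 0.05). CPM used TMM-scaled totals, and standard errors came from limma 3.58.1 (voom). Fgf2 and Fgfr4 were read from a fit with no filter. Steps were tested on simulated data. Pairs of libraries of a group differed by more than counting noise (chi-square per degree of freedom 68.6 to 321), so each is 1 replicate. Alternatives were DESeq2, other scalings and filters, a sex term, the females by themselves, a block for replicate number, thinning to the lowest total and leaving out each vein. An interaction of sex and treatment was added after seeing the data.

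The members and lists were chosen with earlier results of these data known. The named genes are the 10 members, each pathway gene called and, per role, the tested gene with the largest base mean. CPM does not correct for transcript length, so expression levels were not ranked between genes, and the shares and ratios of reads between genes (Fgf10 to Fgf7, Fgfr1 among receptors, the largest base mean per role) are compared only between libraries or used to choose genes.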

Additional observations from a re-analysis of the deposited data

Results flagged for a closer look

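Libraries were screened for values far from the rest of their group, in 44 groups of 4 (22 genes), where chance flags about 1 in 20 groups. Fgfr2 stood apart in both groups, at 16.4 CPM in BAPN 2, where the other BAPN veins were at 4.72 to 5.84 CPM, and at 48.1 CPM in Vehicle 4, where the others were at 11.1 to 15.5 CPM. Frs2 was at 44.4 CPM in Vehicle 3, below 58.2 to 60.4 CPM in the other vehicle veins. Ccnd1 was at 265 CPM in BAPN 4, the BAPN male, above 175 to 189 CPM in the 3 BAPN females.

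For 3 pathway targets, all 3 BAPN females lay below both vehicle females while the 1 BAPN male lay above both vehicle males. Etv1, an ETS factor induced by FGF signaling, was at 34.3 CPM in the BAPN male against 20.5 and 21.3 CPM in the vehicle males, and at 14.7 to 19.4 CPM in the BAPN females against 25.3 and 35.2 CPM in the vehicle females. The difference between the 2 log2 fold changes (male minus female) was 1.54 for Etv1 (edgeR interaction, FDR = 0.191), 1.12 for the related Etv5 (FDR = 0.217) and 0.97 for Ccnd1 (FDR = 0.264). A separation of the groups in opposite directions in females and males was seen in 7.41% of all tested genes. It was seen in 3 of 43 pathway genes and in 0 of the 8 tested FGF genes. Of the FGF genes, Fgf1 had the lowest interaction FDR (difference -1.36, edgeR interaction, FDR = 0.264), with overlap among its females. By edgeR, 0 of 11682 genes had an interaction at FDR below 0.05 and 1442 had one at an unadjusted p below 0.05. These 3 genes were chosen after their values were seen, and the male arm of BAPN holds 1 vein.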

How the results depend on the processing

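The number of tested FGF genes called, 3 in the values reported, was 5 with DESeq2, and 0 by edgeR with sex as a covariate (4 at an unadjusted p below 0.05), with females alone (3) and with the replicate number as a block (4). It was 0 to 2 with 1 vein left out (0 without BAPN 1, BAPN 3, BAPN 4 or Vehicle 1). The number of other pathway genes called, 7, was 11 with DESeq2 (10 lower and 1 higher, Fosl1, a target, at a log2 fold change of 1.37, FDR = 0.0217, named after its values were seen), 3 with sex as a covariate, 0 with females alone (11 at an unadjusted p below 0.05), 5 with the block and 2 to 9 with 1 vein left out. Over all genes, 1957 calls became 3202 with DESeq2, 930 with sex as a covariate, 89 with females alone, 556 with the block and 397 without Vehicle 1. No pairing by replicate number was seen. Deviations from the group means of veins with the same number correlated at 0.09, -0.26, 0.27 and -0.14. Those of veins with different numbers ran from -0.35 to 0.36, and so few veins cannot exclude a pairing. Fgf10, Fgf16 and Fgfr1 kept their direction in all 18 alternatives. The log2 fold change turned with females alone to 0.019 for Fgf1, -0.038 for Fgf7 and 0.68 for Fgf18, and with 1 vein left out it ran from -0.062 to 0.31 for Fgf7 and from -0.85 to 0.10 for Fgf18. The causes were not tested. Of all calls, 55.2% were lower, and 69.5% when scaled by library totals alone, which moved the median of all genes by -0.06. Fgf2 and Fgfr4 had at most 62 reads in a library, and thinning all libraries to the lowest total gave -0.92 (FDR = 0.343) for Fgf2 and -1.79 (FDR = 0.0463) for Fgfr4.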
